A study of Drosophila melanogaster with 3 samples.

Results

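The homeobox developmental genes described here are 46 Drosophila melanogaster genes, of 13968 protein-coding genes on the annotated chromosomes, chosen by name as patterning and cell identity genes that encode a homeodomain. They were not chosen by their binding, but the list was made with earlier results of these data known. The experiment was chromatin immunoprecipitation with sequencing (ChIP-seq) of Trem, a zinc finger protein known for its part in starting meiotic recombination, in whole embryos of 0 to 14 h. The embryos, of mixed sex, came from a transgenic line that stably expressed Trem with eGFP at its C terminus. Per the labels' description the precipitation used an antibody against GFP, while another label gives trem as the antibody. The 3 samples are biological replicates and form 1 group, so there was no comparison of conditions. The age range covers most of embryogenesis and the sample holds every embryonic tissue, so a peak cannot be placed in a stage or a cell type. The promoter that drives the fusion is not given in the sources used here, and the named control experiment was not analysed here.

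A homeodomain is a DNA-binding fold, and the family that carries it sets positional and cell identity in animal embryos. Hox genes lie in the Antennapedia and bithorax complexes in the order in which they act along the body axis, and their proteins bind DNA together with the cofactors Extradenticle and Homothorax. Many of these genes have long introns and large intergenic regions that hold enhancers, insulators and Polycomb response elements, and GAGA factor sites are known at developmental promoters.

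The authors deposited peak lists: 1 list of 30000 peaks for each replicate, a pooled list of 30000 and a list of 7477 peaks kept by their irreproducible discovery rate (IDR) analysis, which scores the agreement of replicates. The IDR peaks were the 7477 strongest of the pooled list. Each peak has a summit position and a signal value given by the authors. Signal values were read only within a list, and they ran between 144.4 and 12214 in the IDR list. Read depth is unknown, and its effect on weak peaks could not be measured. A locus is the gene body with the 10 kb upstream of the gene. A summit within 500 bp of a transcription start site (TSS) of the gene is called a promoter summit, and a summit in an intron, in an exon or upstream beyond that distance is called an away summit. A summit within 500 bp of a TSS of another protein-coding gene only was kept apart from both. One within 500 bp of both genes' TSSs counted for the homeobox gene, which applied at ro and, in the pooled list, also at exd.

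Sequences of 201 bp centred on IDR summits are shown for 4 of the 5 strongest promoter summits and 4 of the 5 strongest away summits, in dm6 coordinates and on the strand of the homeobox gene, from the RefSeq genome. The promoter of oc was added after its values were seen, because it holds the most GAGAG words of the 9 promoter summits. The promoter of Dll and the exon summit of otp, the remaining 2 of these 10, are not printed; their windows have 64.7% and 53.7% GC and no GAGAG. Capitals mark GAGAG, the core of the GAGA factor site, or ATTTAAAA, the 8-letter word with the largest gain in share at IDR summits outside the homeobox loci, each on either strand. The promoter windows lie at chr3R:26881519-26881719 (ro, minus strand), chr3R:6759570-6759770 (bcd, minus strand), chr2L:6019556-6019756 (H2.0, minus strand), chr3L:12609394-12609594 (caup, plus strand) and chrX:8650879-8651079 (oc, minus strand). The intron windows lie at chr3R:10537201-10537401 (hth), chr3R:6903331-6903531 and chr3R:6936213-6936413 (Antp) and chr3R:16958154-16958354 (Abd-B), all on the minus strand.
ro promoter: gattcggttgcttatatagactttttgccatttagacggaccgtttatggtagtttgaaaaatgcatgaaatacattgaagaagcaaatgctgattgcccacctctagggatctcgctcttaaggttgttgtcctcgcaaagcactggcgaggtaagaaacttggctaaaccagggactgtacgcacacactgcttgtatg
bcd promoter: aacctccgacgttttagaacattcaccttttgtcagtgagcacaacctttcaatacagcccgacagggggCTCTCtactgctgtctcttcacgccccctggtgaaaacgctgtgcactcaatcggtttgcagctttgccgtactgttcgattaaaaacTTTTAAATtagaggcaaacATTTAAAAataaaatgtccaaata
H2.0 promoter: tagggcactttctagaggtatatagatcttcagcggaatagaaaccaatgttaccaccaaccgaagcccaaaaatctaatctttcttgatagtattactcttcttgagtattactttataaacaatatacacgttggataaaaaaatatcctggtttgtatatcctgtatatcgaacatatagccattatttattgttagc
caup promoter: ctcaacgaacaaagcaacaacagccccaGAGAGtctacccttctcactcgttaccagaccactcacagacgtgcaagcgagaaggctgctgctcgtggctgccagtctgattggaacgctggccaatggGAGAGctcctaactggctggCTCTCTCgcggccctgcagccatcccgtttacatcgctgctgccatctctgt
oc promoter: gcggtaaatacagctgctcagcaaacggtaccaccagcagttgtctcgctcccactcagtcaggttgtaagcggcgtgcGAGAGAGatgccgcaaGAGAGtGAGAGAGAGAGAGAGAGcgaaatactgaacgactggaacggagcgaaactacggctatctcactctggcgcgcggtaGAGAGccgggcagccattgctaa
hth intron: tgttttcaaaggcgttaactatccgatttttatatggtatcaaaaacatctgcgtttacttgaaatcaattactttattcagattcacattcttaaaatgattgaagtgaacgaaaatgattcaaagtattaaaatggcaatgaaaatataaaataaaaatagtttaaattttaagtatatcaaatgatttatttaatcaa
Antp intron, strongest summit: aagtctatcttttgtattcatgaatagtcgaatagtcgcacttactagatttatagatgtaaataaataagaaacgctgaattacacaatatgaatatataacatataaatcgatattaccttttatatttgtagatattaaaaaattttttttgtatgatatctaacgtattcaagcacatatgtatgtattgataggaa
Antp intron, next summit: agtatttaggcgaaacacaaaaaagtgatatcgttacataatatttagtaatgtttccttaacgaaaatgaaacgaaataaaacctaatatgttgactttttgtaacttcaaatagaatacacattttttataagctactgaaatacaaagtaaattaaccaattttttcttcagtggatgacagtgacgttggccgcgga
Abd-B intron: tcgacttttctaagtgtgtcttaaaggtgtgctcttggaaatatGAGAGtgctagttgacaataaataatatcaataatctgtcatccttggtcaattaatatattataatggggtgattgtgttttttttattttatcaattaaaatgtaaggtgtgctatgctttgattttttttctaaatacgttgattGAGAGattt
The promoter windows vary in composition: GC content is 57.7% at caup and 56.2% at oc, with 4 and 11 GAGAG words counting overlaps, 42.8% at bcd with 1, and 43.8% at ro and 32.3% at H2.0 with none. The intron windows of hth, Antp and Abd-B have between 22.4% and 29.4% GC. Those of hth and Antp carry neither word, while the Abd-B window holds GAGAG once on each side of the summit.

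An IDR summit stood at a promoter of 9 of the 46 homeobox genes (19.6%), against 5818 of 13968 protein-coding genes (41.7%). The 9 were lab, bcd, hth, oc, ap, Dll, caup, H2.0 and ro. With the whole pooled list the promoter share was 33 of 46 (71.7%), against 58.8% of all genes, so 24 further homeobox genes had a promoter summit that was weaker than the IDR list. An IDR summit anywhere in the locus was found for 36 of 46 genes (78.3%), against 65.9% of all genes. An away IDR summit more than 500 bp from every protein-coding TSS was found for 29 of 46 (63.0%), against 20.8% of all genes.

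Homeobox loci are long, with a median of 22059 bp against 12164 bp for all genes, so loci of at least that length were also compared. In the 23 longer homeobox loci, 22 held an IDR summit (95.7%), against 74.4% of 1666 long loci. Of the same 23, 20 held an away summit (87.0%), against 47.7%, and 6 had a promoter summit (26.1%), against 45.3%. Away IDR summits numbered 0.440 per 10 kb of homeobox locus, against 0.196 per 10 kb over all loci and 0.231 per 10 kb over long loci. In the pooled list the away densities were 2.80 per 10 kb, against 1.50 over all loci and 1.63 over long loci. These shares are descriptions of 1 set of lists, and the list was not tested for enrichment.

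The homeobox loci held 79 different IDR summits, of which 1 lay in the loci of both Scr and ftz. Introns held 38 of them, exons 2 and upstream sequence 21, so 61 of 79 (77.2%) were away summits. Promoters of homeobox genes held 9 (11.4%) and promoters of other genes 9. In the whole IDR list 4694 of 7477 summits (62.8%) were at protein-coding promoters. The median signal value was 174.6 at the 9 homeobox promoters and 294.3 at all IDR promoters. It was 203.0 at the 61 away summits and 230.8 at all 2783 IDR summits outside promoters. Only 2 of the 9 promoter summits were above the median of all IDR promoters, and 25 of the 61 away summits were above the median of all summits outside promoters. None of the 61 away summits was within 500 bp of the TSS of an annotated non-coding gene. The share over all 2783 IDR summits outside promoters is not given, so this count describes these loci only.

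**Figure D1:**
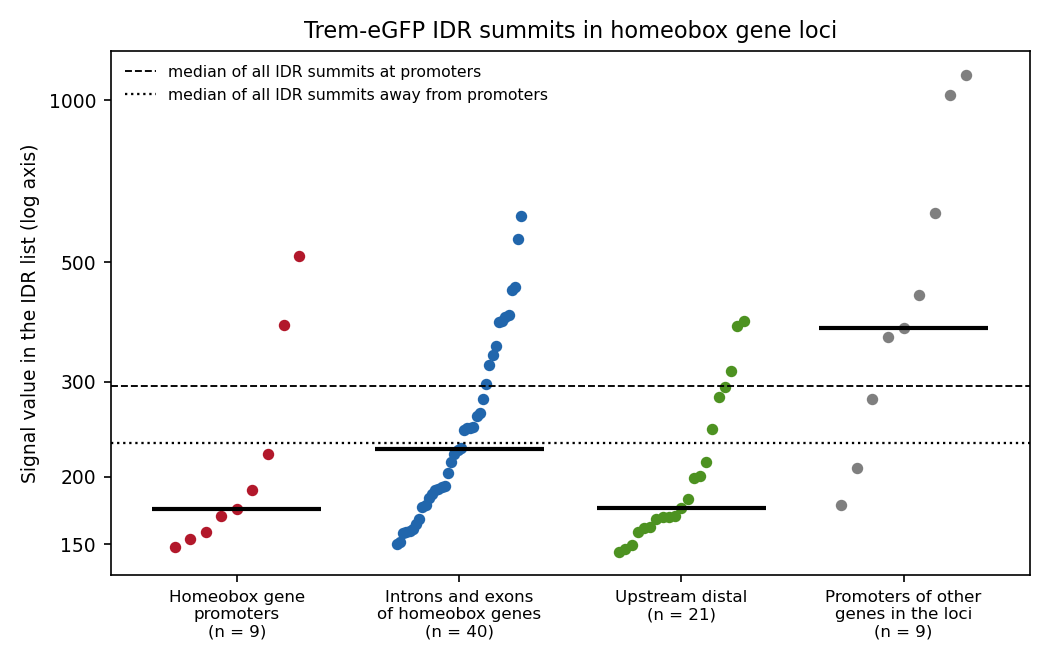
Each point is 1 IDR summit in a homeobox locus, by location, with its signal value in the IDR list on a log axis; short bars are medians, and the 2 broken lines are the medians of all IDR summits at promoters and outside them. The homeobox promoters have a median of 174.6, introns and exons 225.2, upstream distal sequence 174.9 and promoters of other genes within the loci 377.7.

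The 2 strongest promoter summits were at ro and bcd. At ro, which specifies photoreceptors R2 and R5 in the eye, the summit had a signal of 514.8 (rank 1169 of 7477) and ranks of 1918, 824 and 736 in replicates 1, 2 and 3. It lay 448 bp upstream of the ro TSS but 115 bp from the TSS of T48, a head-to-head neighbour that acts in gastrulation, so the lists cannot assign it to 1 of the 2 genes. With summits assigned to the nearest coding TSS only, 8 homeobox genes kept a promoter summit. At bcd, the maternal determinant of anterior fate, the summit lay 204 bp upstream of the TSS with a signal of 383.0 (rank 2119) and ranks of 3232, 1421 and 2656 in the replicates. All 3 replicates ranked both summits among their 7477 strongest peaks.

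The other 7 promoter summits had signals between 148.5 and 221.0, in the weaker part of the IDR list. At Dll, which promotes limb development, the signal was 221.0 (rank 4796), 73 bp from the TSS, with replicate ranks of 5728, 3953 and 4533. At H2.0, a gene of the visceral musculature, it was 189.0 (rank 5730), 254 bp from the TSS, with ranks of 8795, 6408 and 3458. At caup, an Iroquois gene of the dorsal thorax, it was 174.6 (rank 6228), 137 bp from the TSS, with ranks of 8783, 4692 and 7089. Dll was thus in the strongest 7477 peaks of every replicate, and H2.0 and caup were outside them in replicate 1.

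At lab, the most anterior Hox gene, the promoter summit had a signal of 168.9 (rank 6428) and lay 263 bp downstream of an internal TSS, 15.4 kb from the gene's most upstream TSS. Its replicate ranks were 6417, 5513 and 7105. At hth, the signal was 158.2 (rank 6879), 157 bp upstream of an internal TSS and 25.1 kb into the gene, with ranks of 16049, 4527 and 12069. Within 100 bp of that summit only replicate 2 had one of its strongest peaks, but replicate 3 had another, at rank 5426, 32 bp from the same TSS.

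At oc, also called orthodenticle, which patterns the head, the signal was 153.4 (rank 7093), 298 bp from the TSS, with ranks of 7118, 5274 and 20941. At ap, the LIM-homeobox selector of the dorsal wing compartment, it was 148.5 (rank 7284), 128 bp from an internal TSS, with ranks of 13308, 6114 and 4979. The ap summit was close to the lowest IDR signal of 144.4. Of the 9 promoter summits, 8 lay upstream of the TSS, against 84.3% of all IDR promoter summits, and 1 lay within 100 bp of it. Their median position was -157 bp from the TSS (negative is upstream). It was -73 bp from the nearest coding TSS for all IDR promoter summits. Taking only the most upstream TSS of each gene left 6 of the 9 genes.

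Promoter summits below the IDR list were present at 24 further homeobox genes. The strongest of them were at cad, which encodes a posterior determinant (pooled signal 135.1), at the segment polarity gene en (118.6) and at the Iroquois gene mirr (106.6). The others were at pb, Antp, Ubx, abd-A, exd, inv, ems, otp, Ptx1, repo, al, Lim1, slou, lbe, Dr, B-H2, ara, ct, onecut, unpg and exex. No pooled promoter summit was listed for 13 genes: Dfd, Scr, Abd-B, ftz, eve, prd, gsb, gsb-n, Awh, bap, lbl, C15 and B-H1.

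**Figure D2:**
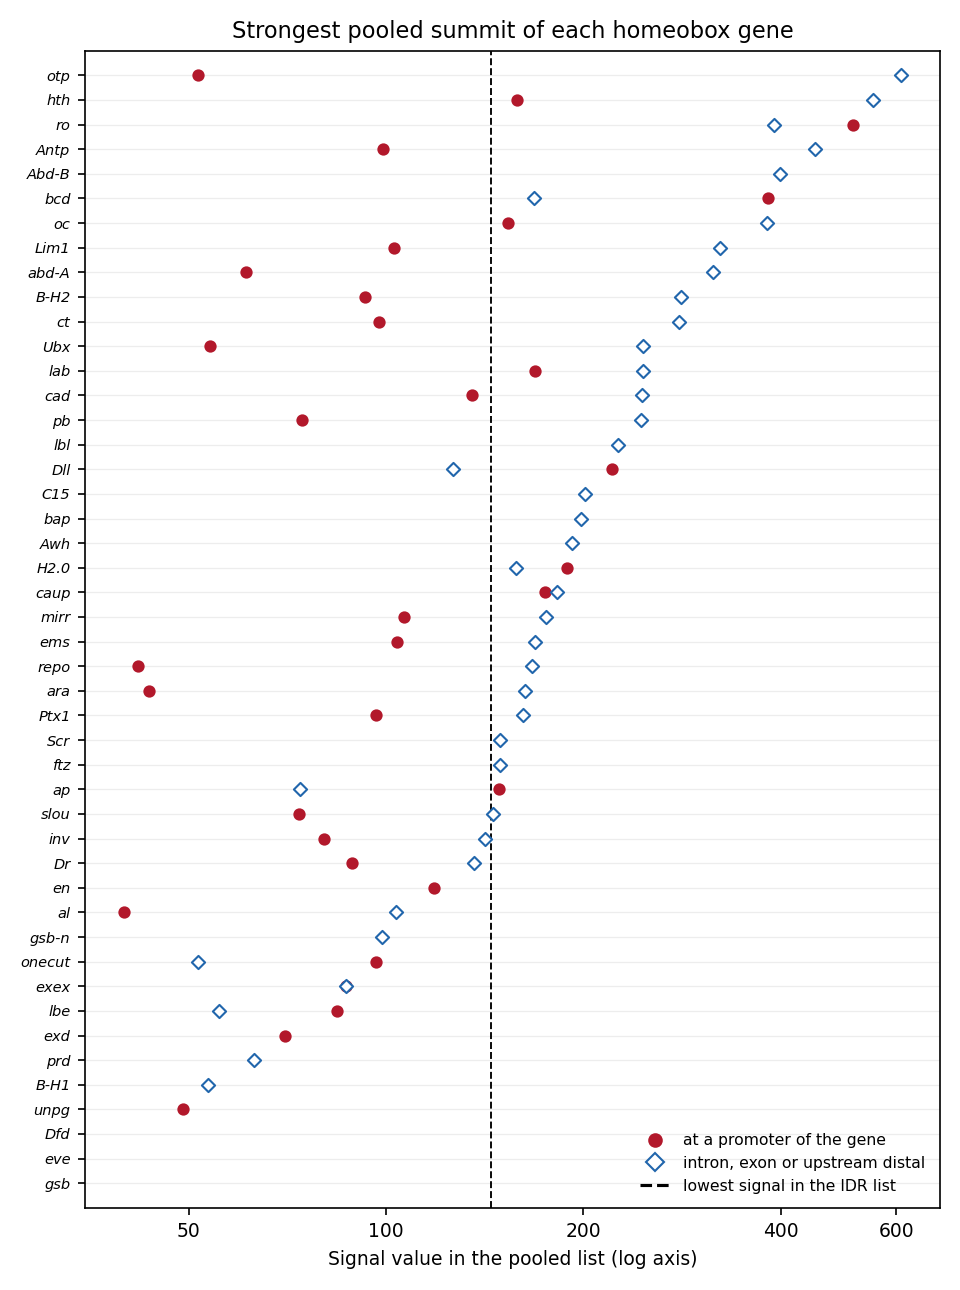
For each of the 46 homeobox genes, the signal value of its strongest pooled summit at a promoter (filled circles) and away from promoters (open diamonds) on a log axis, with the lowest IDR signal of 144.4 as a broken line. Dfd and gsb have no summit in their locus, and the eve locus has 1 only at the promoter of another gene; at ro, bcd, Dll, H2.0 and ap the promoter summit is in the IDR list and above the strongest away summit.

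Among the 8 Hox genes, which specify segment identity, lab alone had a promoter IDR summit (1 of 8, against 41.7% of all genes). IDR summits in the gene body away from every coding TSS were found in 5 of 8, with 19 in all; over the 46 genes this held for 14 (30.4%), against 7.06% of all genes. Among the 23 longer homeobox loci it held for 14 (60.9%), against 37.9% of long loci. Antp, the selector of the second thoracic segment, held 9 over a gene of 103.0 kb. The strongest Antp summit had a signal of 451.1 (rank 1523) with replicate ranks of 963, 2723 and 3968, and the next had 443.9 (rank 1567) with ranks of 971, 6160 and 2024. Of the 9 Antp summits, 8 also lie within CG46458, an annotated coding gene that overlaps Antp. Both of these Antp summits were ranked best in replicate 1.

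Abd-B, the selector of the posterior abdomen, held 3 intron summits with signals of 398.7, 336.9 and 247.4, and none within 500 bp of its 6 TSSs. The strongest had replicate ranks of 1786, 1375 and 4344. In lab, 3 intron summits had signals between 150.3 and 246.7, and the strongest of them was above the lab promoter summit. The pb introns held 2 summits of 244.8 and 191.3 in this mouthpart selector. The Ubx introns held 2, of 246.8 and 157.1; the weaker was found in replicate 1 alone, at rank 9902, and the stronger was not found in replicate 3. Ubx is the selector of the third thoracic segment.

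The abd-A locus had 2 summits upstream of the gene, 7.9 and 4.8 kb away, with signals of 315.1 and 212.9, and none in the gene. Both lie inside MSAmiP, another annotated coding gene. The stronger had ranks of 2645, 3922 and 4367 in the replicates. Scr, the selector of the labial and first thoracic segments, shared its only IDR summit (149.4) with ftz, a pair-rule gene. That summit lay 4.5 kb upstream of Scr and was not found in replicate 2. The locus of Dfd, the selector of the maxillary segment, had no IDR or pooled summit.

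The plot of summits along hth, Antp, Abd-B and lab shows how the IDR summits stood relative to annotated TSSs.

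**Figure D3:**
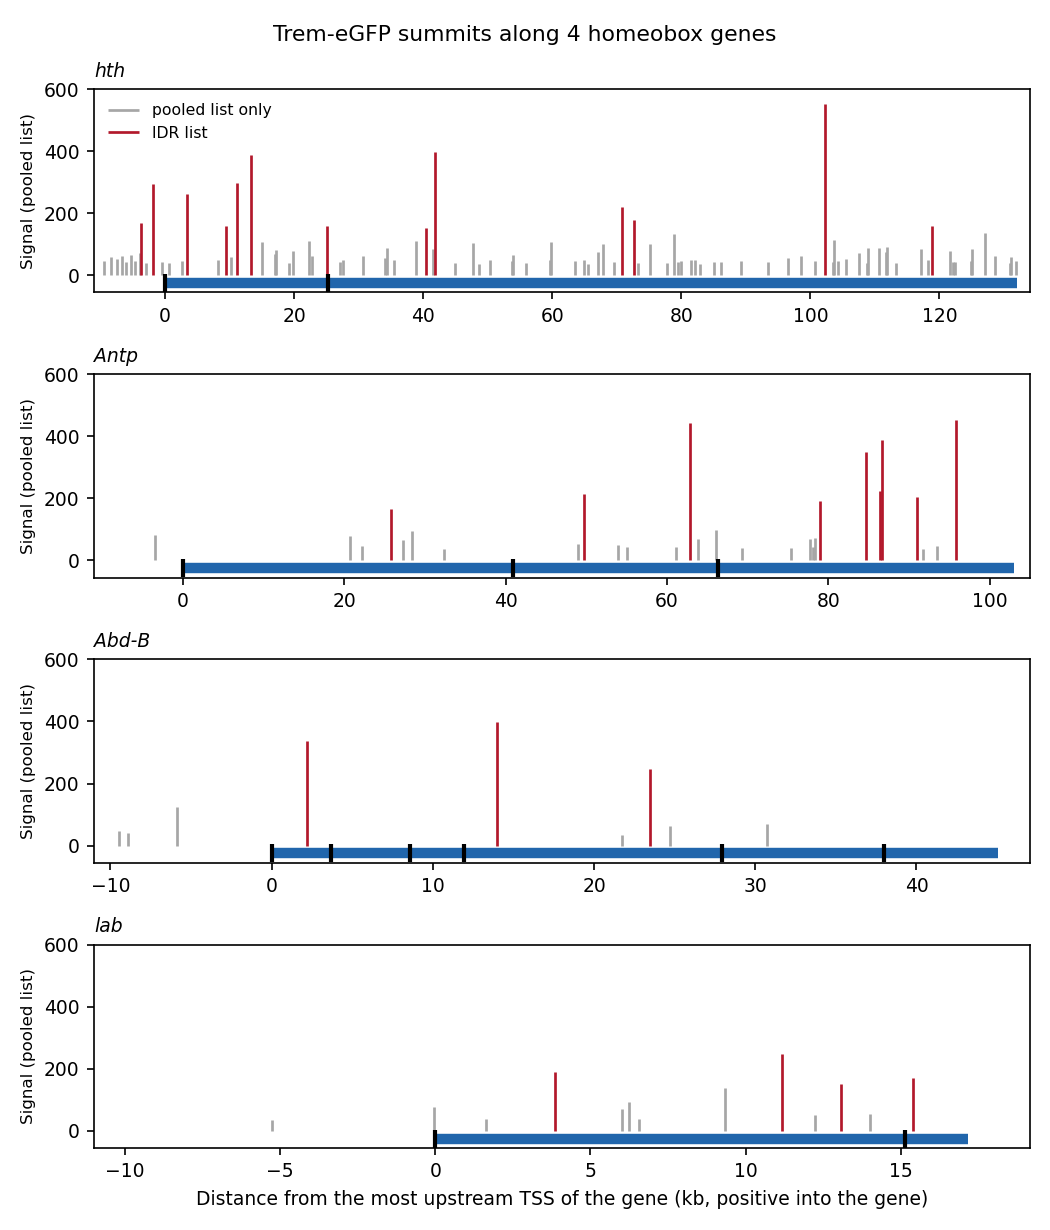
Vertical lines are pooled summits along 4 homeobox loci, with height as signal in the pooled list; red lines are in the IDR list and grey lines in the pooled list only, the blue bar is the gene and black ticks are its annotated TSSs. The hth gene carries summits along its whole length, and in Antp and Abd-B the IDR summits stand apart from the ticks.

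Within the whole Antennapedia complex, between the outer ends of lab and Antp, there were 23 IDR summits, or 0.681 per 10 kb, against 0.560 per 10 kb over the chromosome arms. Of these, 15 lay in the homeobox genes named here and 3 at coding promoters. Intergenic summits outside the loci included 3 downstream of Dfd, with signals of 192.0, 228.3 and 164.9, and 1 between ftz and Antp with a signal of 405.0. The bithorax complex held 16, or 0.507 per 10 kb, with none at a coding promoter and 5 inside Ubx or Abd-B. Its strongest was the Abd-B intron summit of 398.7. Over the chromosome arms, 4694 of 7477 IDR summits (62.8%) were at coding promoters, so the density of 0.560 per 10 kb there is mostly of promoter summits. It is therefore not a like measure for these complexes, where few or none were at coding promoters. Pooled summits numbered 2.34 and 2.28 per 10 kb in the Antennapedia and bithorax complexes, against 2.25 per 10 kb over the chromosome arms.

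The Hox cofactor gene hth had the most summits of the 46 loci, 13 in the IDR list and 96 in the pooled list. Its encoded protein carries Extradenticle into the nucleus. The strongest, in an intron 102.3 kb into the 132.0 kb gene, had a signal of 552.9 (rank 1013) with replicate ranks of 881, 1471 and 1521. Intron summits at 41.8 kb and 13.3 kb had signals of 395.6 and 387.3, and the strongest upstream summit, 1.9 kb from the gene, had 294.0. The gene body held 84 pooled summits, which placed hth at position 2 among all protein-coding genes although it was at position 44 by length. That is 6.36 pooled summits per 10 kb, against a median of 0.704 per 10 kb over the 87 genes of at least 100 kb, none of which was above hth. The partner gene exd had no IDR summit of its own: the only one in its locus (207.7) was at the promoter of ND-20, a gene for a mitochondrial complex I subunit. The exd promoter reached 70.1 in the pooled list, at a summit that is also within 500 bp of a TSS of eIF5.

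The genes cad, eve, prd, en, inv, gsb and gsb-n, grouped here as segmentation genes apart from bcd, ftz and the head gap genes, had no IDR summit at a promoter or in the gene body (0 of 7). The promoter share was 9 of the 46 genes (19.6%) and 41.7% of all genes, and bcd and oc, which also pattern the early embryo, had promoter summits. The share with an IDR summit in the gene body away from every coding TSS was 30.4% of the 46 genes and 7.06% of all genes. The cad locus had 1 upstream summit of 245.8, 8.6 kb from the gene and 1.9 kb from the TSS of dia, with replicate ranks of 3781, 6235 and 4750. The eve and prd loci, both of pair-rule genes, had IDR summits at the promoters of CG12134 (377.7) and Pex19 (279.4) only. The segment polarity pairs were below the IDR list: the strongest pooled summit was 118.6 for en, at its promoter, 141.3 for inv and 98.7 for gsb-n, and gsb had none. Between the outer ends of en and inv and of gsb and gsb-n there were 0 IDR summits, in 53746 and 24261 bp. Over the chromosome arms there were 0.560 IDR summits per 10 kb, 62.8% of them at coding promoters. Pooled summits numbered 2.42 and 2.47 per 10 kb in these stretches, against 2.25 per 10 kb over the chromosome arms.

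Both head gap genes had upstream IDR summits. At oc this was 380.6 (rank 2138), 6.1 kb upstream, with replicate ranks of 1553, 3105 and 4311, and it was stronger than the promoter summit in the IDR list. At ems it was 168.8, 8.8 kb upstream. The strongest upstream summit of the 46 loci was at ro, 389.9 (rank 2050), 5.3 kb from the gene with ranks of 2421, 2245 and 1416. It lay closer to the TSS of the neighbour T48, at 4728 bp. The bcd locus had a weaker upstream summit of 168.1. These away summits of ro and bcd were below their promoter summits.

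The strongest away summit of all 46 loci lay in an exon of otp, a paired-like gene of the brain and hindgut, with a signal of 609.8 (rank 806). Its replicate ranks were 1029, 795 and 720, so it was among the strongest peaks of every replicate. The other paired-like genes had upstream summits near the bottom of the IDR list, 166.9 at repo, the glial determinant, and 161.5 at Ptx1. The Ptx1 summit was not found in replicate 3. The locus of al, a gene of the appendage tip, had pooled summits only, up to 103.7.

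Of the LIM genes, Lim1 had 2 intron summits, 322.7 (rank 2831) and 259.6. The stronger had replicate ranks of 2384, 3308 and 5270. Awh, which acts in the abdominal histoblasts, had 2 intron summits of 192.0 and 159.7, and the stronger was not found in replicate 2. The ap locus had no away IDR summit. The CUT genes differed: ct, which specifies external sensory organs, had intron summits of 279.3 and 185.6 and an upstream summit of 160.5, and onecut had 1 in its locus, at the promoter of Eph (177.1).

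None of the 6 NK-type genes of the list, which pattern the mesoderm, its muscles and other tissues, had a promoter IDR summit, against 41.7% of all genes. Of the NK-type genes outside the list, tin and NK7.1 did have one, with signals of 810.0 and 462.7. The others, vnd, scro, Hmx, HGTX, lms and CG34031, had none. In lbl an intron summit had a signal of 226.0, and upstream summits had 201.2 at C15, 198.6 at bap and 145.4 at slou. In lbe and Dr the strongest pooled summits were 84.2 and 136.1. The cluster that runs between bap and slou held 9 IDR summits, or 0.535 per 10 kb, and the strongest, 846.1, was at the promoter of Fancm, a DNA repair gene, not at an NK gene. Among the Iroquois genes ara, caup and mirr, each had 1 intron summit, with signals of 163.2, 182.5 and 175.6, and mirr had an upstream summit of 174.9. The mirr intron summit was not found in replicate 1 and the upstream one not in replicate 3. The Iroquois complex held 0.540 IDR summits per 10 kb and 4.32 pooled summits per 10 kb, against 0.560 and 2.25 per 10 kb over the chromosome arms. Of its 7 IDR summits, 1 was at a coding promoter, against 62.8% of those over the chromosome arms. Its strongest IDR summit, 376.5, was intergenic, 34908 bp from the caup TSS.

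Of the remaining genes, B-H2, a BarH gene of sense organs, had upstream summits of 281.6 and 146.8, and its neighbour B-H1 had 1 pooled summit of 53.6. No IDR summit lay in the 88698 bp between the outer ends of the BarH pair, against 0.560 per 10 kb over the chromosome arms, 62.8% of them at coding promoters. Pooled summits there numbered 2.37 per 10 kb, against 2.25 per 10 kb over the chromosome arms. The H2.0 locus held an upstream summit of 157.8, not found in replicate 2. For exex, a motor neuron gene, the strongest pooled summit was 86.9. The unpg locus, of a gene expressed in the nervous system, had 1 IDR summit, 435.2, shared by the promoters of CG45085 and CG8026.

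Promoters of other genes held the 3 strongest summits of the homeobox loci. The highest were 1116 at Mdh2, a mitochondrial malate dehydrogenase gene upstream of repo, and 1022 at Ama, a cell adhesion gene upstream of bcd. The next was 616.8 at CG9107 near H2.0, followed among these promoters by 435.2 at CG45085 and CG8026, 377.7 at CG12134 and 364.3 at sowah near ara. These highest 2 were the only summits of the 79 within the 747 strongest IDR peaks. The median signal was 377.7 at these 9 promoters, above that of all IDR promoters.

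Replicates were compared by matching summits within 100 bp. Of the 79 summits, 95.8% ± 2.64 were found in a replicate list of 30000 (mean ± SD, n = 3), against 94.9% ± 1.43 of all IDR summits. In every replicate list, 70 of 79 (88.6%) were found, against 86.1% of all IDR summits. Among the 7477 strongest peaks of a replicate, 87.3%, 65.8% and 63.3% of the homeobox summits were found in replicates 1, 2 and 3, against 86.9%, 78.7% and 79.2% of all IDR summits. Only 35 of 79 (44.3%) were in the strongest peaks of all 3 replicates, against 60.1%.

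The order of promoter and away summits differed between replicates. The median rank of the 9 promoter summits was 7118, 4692 and 4979 in replicates 1, 2 and 3, against 4299, 6126.5 and 6318 for the away summits that were found. By median rank, promoter summits were weaker than away summits in replicate 1 and stronger in replicates 2 and 3. The mean difference in median rank was 15.2 with an SD of 2429 (n = 3), and the exact two-sided sign-flip permutation test gave p = 1.0, where 3 replicates allow no p below 0.25. Of the 61 away summits, 44 had their best rank in replicate 1, while 0 of the 9 promoter summits did. Over the whole IDR list 59.4% of summits outside promoters and 31.2% of promoter summits ranked best in replicate 1. There the median promoter ranks were 3389, 2989.5 and 3050.5 in replicates 1, 2 and 3, against 4068.5, 5167 and 5044 outside promoters, so promoters ranked ahead in every replicate. The difference between the homeobox loci and the whole list was not tested. Of the 7477 strongest peaks of each replicate, 59.7%, 67.0% and 65.1% were at promoters. What sets replicate 1 apart was not tested.

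**Figure D4:**
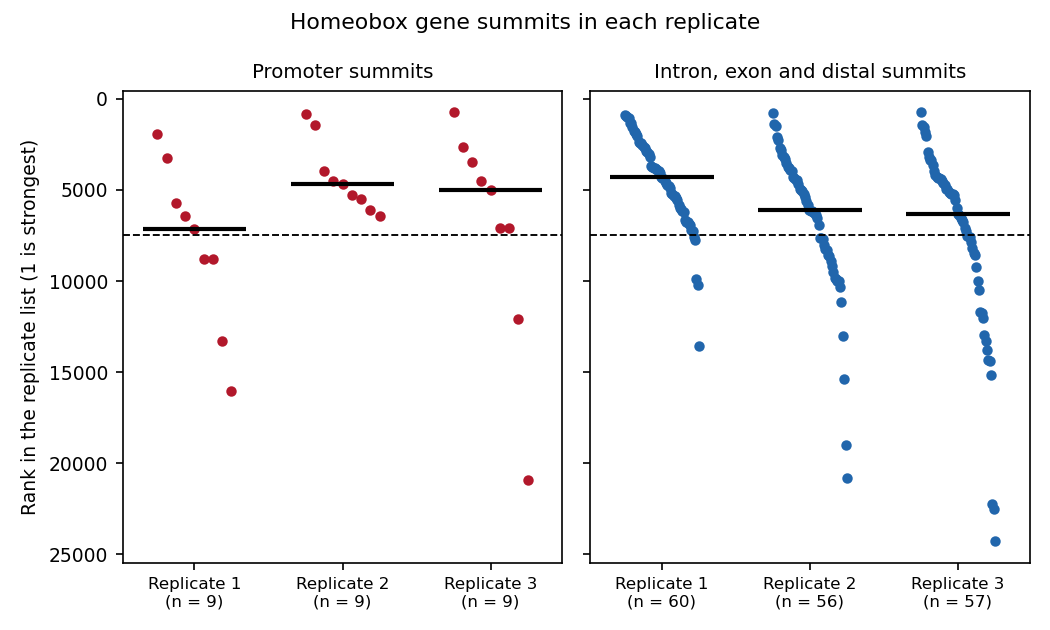
Ranks of the homeobox promoter summits (left) and away summits (right) in each replicate list, with 1 the strongest at the top; each point is 1 summit, bars are medians, and the broken line marks rank 7477. Median promoter ranks are 7118, 4692 and 4979, and median away ranks 4299, 6126.5 and 6318, in replicates 1, 2 and 3.

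The homeobox promoter counts varied with the replicate in the same way. Within its strongest peaks, replicate 1 had a promoter summit at 5 of 46 homeobox genes (10.9%), against 40.6% of all genes. Replicate 2 had 11 (23.9%), against 41.4%, and replicate 3 had 14 (30.4%), against 40.4%. The 4 genes present in all 3 were lab, bcd, Dll and ro. Lim1 and ems were present in replicate 2 only, and Dr, cad, en, exd, lbe and mirr in replicate 3 only. The homeobox share was below the share of all genes in each replicate.

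Base composition and short words were read within 100 bp of the summits, as in the windows printed above. Median GC content was 50.2% at the 9 homeobox promoter summits and 35.8% at all IDR promoters. At the 39 weaker homeobox promoter summits of the pooled list it was 53.2%, against 40.8% at all such promoter summits. All 73 annotated homeobox TSSs had a median of 51.2%, against 42.3% for all coding TSSs. At the 61 away summits the median was 32.8%, against 33.3% at all IDR summits outside promoters and 40.0% in windows 1000 bp to either side of the same away summits. By median, the away windows were thus lower in GC than the sequence beside them, and the promoter windows were close to homeobox TSSs in general.

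The word GAGAG, on either strand and with overlapping matches allowed, occurred in 5 of 9 homeobox promoter windows (55.6%), against 17.6% of all IDR promoter windows. It occurred in 53.8% of the 39 weaker pooled homeobox promoters, against 27.5%, and in 45.2% of all homeobox TSS windows, bound or not, against 25.0% of all coding TSS windows. At the away summits it occurred in 18 of 61 (29.5%), against 23.1% of all IDR summits outside promoters and 23.8% of windows 1000 bp to either side. The share at the bound promoters can therefore be read beside that of the homeobox TSSs as a whole. TATCGATA, the element of DREF and BEAF-32, occurred in 0 of 9 promoter and 0 of 61 away windows, against 13.8% of all IDR promoter windows and 1.22% of all IDR windows outside promoters. GGTCACACT, core promoter Motif 1, occurred in 0 of 9, against 8.69%. It occurred in 1 of 61 away windows (1.64%), upstream of bap, against 0.395% of all IDR windows outside promoters.

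The homeodomain core TAATTA occurred in 0 of 9 homeobox promoter windows, against 16.4% of all IDR promoter windows, and in 9 of 61 away windows (14.8%), against 18.1%. CAGGTAG, the word of the early activator Zelda, occurred in 0 of 9 and 1 of 61 windows, against 0.660% of all IDR promoter windows and 1.08% of those outside promoters. ATTTAAAA occurred in 13.4% of IDR windows outside the homeobox loci and 4.60% of windows 1000 bp away. It occurred in 1 of 9 homeobox promoter windows, against 14.7% of all IDR promoter windows. That window, of bcd, holds the word on each strand as printed above. The word occurred in 7 of 61 away windows (11.5%), against 11.1% of all IDR windows outside promoters. Of the windows 1000 bp to either side of these away summits, 10 of 122 held it. A match is a description of the letters in a window, and no match says nothing of a factor's presence.

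A further 52 homeobox genes outside the list were read in the same way. A promoter IDR summit was found at 10 of them (19.2%), against 41.7% of all genes and 9 of 46 in the list. The strongest were at achi (1626), tin (810.0), NK7.1 (462.7), ey (378.8), dve (195.9), pros (190.1), Six4 (177.8) and eyg (175.7). Of these, achi encodes a TALE protein and tin the determinant of the heart. The achi summit also lies within 500 bp of a TSS of CG13151. An IDR summit anywhere in the locus was found for 29 of 52 (55.8%), against 65.9% of all genes, and a pooled promoter summit for 25 (48.1%), against 58.8%. Both shares were below those of all genes, while those of the 46 genes were above them. An away summit was found for 17 of 52 (32.7%), against 20.8% of all genes, but among their 23 longer loci for 10 (43.5%), against 47.7% of long loci. Their median signal was 193.0 at the 10 promoter summits and 236.8 at 29 away summits.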

How the data were processed

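ChIP-seq of Trem-eGFP in 3 biological replicates was analysed from peak lists on dm6 deposited by the authors. The signal value per peak was computed by the authors' peak calling, against a control per the deposited file lists, before deposit. For the aligner, caller, IDR settings and signal scale, names and versions were not given in the sources used here. Both the IDR and the pooled list are the authors' own over the same 3 replicates, so p-values and SDs rest on the replicate lists. A summit was the peak start plus the deposited offset, printed counting from 1.

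Genes and TSSs came from the Ensembl annotation (BDGP6.54, dm6 coordinates) and sequence from the RefSeq genome of that assembly. All 46 members matched by symbol. The members, the other homeobox genes, words and comparisons were chosen with earlier results of these data known. Genes named are those with a promoter summit, the 8 with the strongest away summits, pooled-only and summit-free members, up to 6 other genes at whose promoters summits lay in the loci, and up to 8 of the other homeobox genes; values of the remaining away summits were added after they were seen. Python 3.11.15, numpy 2.4.6, pandas 2.3.3, scipy 1.17.1 and matplotlib 3.10.9 were used, and the assignment of summits was tested on simulated summits. Alternatives were a TSS window of 250 or 1000 bp, 5 or 20 kb upstream, a match within 50 or 200 bp, the strongest 3738 IDR peaks, the whole pooled list and leaving out each replicate. Reads were not analysed here.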

Additional observations from a re-analysis of the deposited data

How the results depend on the processing

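Of 64 alternative values, 33 were counted as keeping to the reported result, 28 as moved and 3 as changed in direction. The count of 33 is broad. It includes ratios of median signal, promoter over away, of 1.17 in the strongest 3738 IDR peaks and 1.03 without replicate 2. Promoters were the stronger there, while the ratio in the IDR list was 0.86. The 33 also include rank differences of 740.0 and 692.25, against 15.2, and 24 and 25 genes with a summit in the locus, against 36. The 9 homeobox genes with a promoter summit, and the 9 such summits, became 5 with a TSS window of 250 bp and 2 of each in the strongest 3738 IDR peaks (below, the strongest part), and 33 genes with 48 summits in the pooled list; keeping IDR peaks that 2 replicates share among their strongest gave 4 to 7 of each, and cut the whole IDR list from 7477 to 5003 without replicate 1, 5208 without replicate 2 and 5189 without replicate 3. The 36 genes with a summit in the locus became 17 in the strongest part, and 23 to 25 with a replicate left out. The 40 intron and exon summits became 13 in the strongest part, 267 in the pooled list and 17 to 23 with a replicate left out. The 21 distal summits became 5, 126 and 9 to 10 in the same settings, and 10 and 34 with 5 and 20 kb upstream. The 9 at promoters of other genes became 15 in the pooled list and 3 and 32 with 5 and 20 kb; they were 7 to 8 with a replicate left out. The ratio of median signal, promoter over away, was 0.86 in the IDR list, 1.17 in its strongest part and 1.43 in the pooled list, and 0.593 to 1.03 with a replicate left out. Leaving out a replicate changed the set of peaks, while the signal values stayed those of the IDR list over all 3 replicates. Within the lists of replicates 1, 2 and 3 the ratio was 0.622, 1.24 and 1.21. The share found in replicates was 81.9% within 50 bp. The rank difference of 15.2 became -354.7 within 50 bp, and without replicate 1, 2 and 3 it was between -1387 and 740.0. The causes were not tested. No paired analysis was possible because there is 1 group, so no groups could be paired; the sign-flip test pairs promoter and away ranks within a replicate. Depth is unknown, so the absence of a summit is no measure of absence of binding.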
